A study of Mus musculus with 16 samples.

Results

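The genes described here make cholesterol and fatty acids. They are 30 members chosen by name, among 27729 gene names on the array, from the enzymes of both pathways and the proteins that switch them on and off. The cholesterol arm holds 21 genes: 18 enzymes from Acat2, which condenses acetyl units, to Dhcr7, which makes the last reduction, and Insig1, Srebf2 and Stard4, which sense, switch on or carry sterols. The fatty acid arm holds 9 genes: the regulator Srebf1 and the enzymes Acly, Acaca, Fasn, Elovl6, Scd1, Scd2, Fads1 and Fads2. All 30 were measured well above background on each of the 16 arrays used, so none was lost to the filter on dim probes, which 21640 genes passed.

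Cells build cholesterol from acetyl-CoA through mevalonate, squalene and lanosterol. When sterols run low in the endoplasmic reticulum, SREBP-2, the product of Srebf2, is carried to the Golgi, cut and released to the nucleus, where it switches on this whole chain of enzymes, usually together with the factors NF-Y and Sp1, while Insig proteins hold it back when sterols are plentiful. SREBP-1, from Srebf1, acts mainly on fatty acid synthesis and desaturation, and in the lung alveolar type II cells draw on both pathways for the phospholipids and cholesterol of surfactant.

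Lungs came from BALB/c mice, an inbred laboratory strain, exposed at the age of 3 days for 3 h to ozone at 1000 ppb or to filtered air, with no other agent or genetic change in any group. The pups of each time point had their own littermates in air, were cared for by foster dams during the exposure, and gave their lungs 6 h or 24 h after it ended. The 4 groups (air 6 h, ozone 6 h, air 24 h and ozone 24 h) hold 4 mice each, with 1 array of total RNA from the whole lung of each mouse, so the p-values measure the spread between mice. The design set ozone against air at each time. Whole lung mixes many cell types, and fewer cells of a type cannot be told apart here from less RNA per cell.

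Levels are given as log2 of the probe's signal relative to the 75th percentile of its array, with replicates in the order 1 to 4, and differences as ozone minus air on the log2 scale with the standard error (SE). A level compares lungs for 1 gene only, because probes differ in how well they bind. A gene was called changed at a Benjamini-Hochberg adjusted p under 0.05, from limma, over all 21640 genes.

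The 75th percentile of the signal lay between 574 and 946 over the arrays, and the share of spots well above background between 65.0% and 83.9%. Ozone replicate 3 of 6 h had 83.9%, apart from the other 7 arrays of 6 h, at 72.4% or less, and the lowest correlation between arrays of a group was 0.969, among the ozone lungs of 6 h. Replicates 1 and 2 of both groups of a time shared a slide, and replicates 3 and 4 shared another, so the ozone difference could also be read on each slide. The 5 defining lung markers were well above background on all arrays. Sex was inferred from Y-linked genes and Xist on the arrays. By this, 2 of 4 ozone and 1 of 4 air lungs of 6 h were male, and 3 of 4 and 1 of 4 of 24 h.

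Promoter sequence is shown for the 5 members that passed the test at 6 h or 24 h and hold an NF-Y box. Of the others that passed, Fads2 holds no such box and Scd1 had no promoter sequence. RefSeq's table for build GRCm38.p6 held 23 of the 30 members (28 promoters). It had no entry for Fdps, Fdft1, Sqle, Stard4, Scd1, Scd2 or Fads1. In the 250 bases before each start site, capitals mark the NF-Y box CCAAT and the Sp1 box GGGCGG on either strand (ATTGG and CCGCCC on the other), and no 2 of these boxes overlap in the sequences shown.
Idi1, chr13:8885356-8885605, plus strand: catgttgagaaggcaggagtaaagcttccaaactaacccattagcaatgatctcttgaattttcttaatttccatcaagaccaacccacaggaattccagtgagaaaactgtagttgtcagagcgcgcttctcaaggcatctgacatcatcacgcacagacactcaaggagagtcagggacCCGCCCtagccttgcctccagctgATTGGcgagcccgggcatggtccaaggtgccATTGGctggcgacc
Cyp51, chr5:4104698-4104947, minus strand: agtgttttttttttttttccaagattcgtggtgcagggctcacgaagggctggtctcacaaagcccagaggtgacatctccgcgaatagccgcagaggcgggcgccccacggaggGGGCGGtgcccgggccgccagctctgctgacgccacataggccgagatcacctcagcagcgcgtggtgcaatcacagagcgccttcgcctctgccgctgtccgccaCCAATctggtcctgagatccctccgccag
Tm7sf2, chr19:6067851-6068100, minus strand: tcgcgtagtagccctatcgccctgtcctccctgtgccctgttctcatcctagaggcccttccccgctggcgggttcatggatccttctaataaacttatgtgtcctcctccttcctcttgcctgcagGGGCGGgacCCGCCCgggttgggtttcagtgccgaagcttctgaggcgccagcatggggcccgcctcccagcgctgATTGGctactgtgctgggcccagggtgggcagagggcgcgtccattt
Msmo1, chr8:64733579-64733828, minus strand: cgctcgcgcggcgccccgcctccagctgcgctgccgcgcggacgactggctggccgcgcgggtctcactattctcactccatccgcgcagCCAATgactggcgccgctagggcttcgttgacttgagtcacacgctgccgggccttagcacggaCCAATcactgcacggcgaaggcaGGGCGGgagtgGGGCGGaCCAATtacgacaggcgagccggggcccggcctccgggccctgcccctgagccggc
Sc5d, chr9:42264301-42264550, minus strand: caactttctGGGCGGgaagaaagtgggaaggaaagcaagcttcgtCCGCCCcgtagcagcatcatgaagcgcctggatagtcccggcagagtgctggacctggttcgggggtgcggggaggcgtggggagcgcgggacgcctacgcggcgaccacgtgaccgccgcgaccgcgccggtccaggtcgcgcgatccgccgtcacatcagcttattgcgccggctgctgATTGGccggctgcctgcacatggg
CCAAT lay in this window in 16 of 17 cholesterol genes (94.1%) and 2 of 6 fatty acid genes, Srebf1 and Fasn, against 37.5% of all genes in the table (33.8% of all promoters). GGGCGG lay in 16 of 17 cholesterol genes and 3 of 6 fatty acid genes, Srebf1, Acly and Fads2, against 35.4% of all genes (32.7% of promoters). The sterol response element, searched as TCACNCCAC, was found in 1 of 23 members, Hmgcs1, starting 137 bases before its start site. It was found in 1.22% of all genes in the table (1.05% of all promoters). No other form of the element was searched, so a member without a match is not shown to lack it. A match describes letters in this window, not a bound site.

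At 6 h, 4 enzymes of the cholesterol arm were lower after ozone: Idi1, Cyp51, Msmo1 and Sc5d, which act in the middle and the late part of the chain. The ozone lungs held 0.674 to 0.724 of the air level of these genes. No member was called higher, and none of the 9 fatty acid genes was called. With limma, 4 of 30 members were called, against 4.48% of all genes (3.11% called lower and 1.36% higher). At an unadjusted p under 0.05 the counts were 9 of 21 cholesterol genes and 1 of 9 fatty acid genes, all lower, against 10.8% of all genes lower and 21% in either direction.

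Msmo1, the C4-methylsterol oxidase that starts the removal of methyl groups from the ring, is listed on the array under its older name Sc4mol, and its probe lies at chr8:67196982-67197041, minus strand, in build mm9. Its levels were 4.27, 3.87, 3.98 and 4.15 in the air lungs and 3.48, 3.51, 3.39 and 3.63 in the ozone lungs. Each ozone lung was below each air lung, with the mean at 3.50 ± 0.10 (SD, n = 4) against 4.07 ± 0.18 (SD, n = 4). The difference was -0.57 ± 0.10 (SE; limma adjusted p = 0.00628), and it was called in 16 of 16 fits that left out 1 array. The slides gave -0.58 for replicates 1 and 2 and -0.56 for replicates 3 and 4.

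Idi1, the isomerase that interconverts the isoprene building blocks, stood at 3.03, 2.59, 2.84 and 2.93 in air and 2.26, 2.22, 2.19 and 2.56 in ozone. The highest ozone lung, replicate 4, lay just below the lowest air lung, replicate 2, and the rest were well separated. The difference was -0.54 ± 0.11 (SE; limma adjusted p = 0.0165), and a second probe gave -0.67. Both probes carry an accession that RefSeq's table does not pair with Idi1, and the array design puts them on chromosome 2 of mm9 (the probe used at chr2:53553575-53553634, minus strand), while RefSeq has Idi1 on chromosome 13, so which copy they measure is uncertain. The call was lost without ozone replicate 3 (adjusted p = 0.0505), without air replicate 4 (0.0712) and with times fitted apart (0.0612).

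Cyp51, the lanosterol demethylase, was at -1.15, -1.31, -1.48 and -1.20 in air and -1.99, -1.64, -1.86 and -1.52 in ozone (probe at chr5:4083236-4083295, minus strand, mm9). The groups did not overlap, although ozone replicate 4 and air replicate 3 came close to each other. The difference was -0.47 ± 0.11 (SE; limma adjusted p = 0.0276), and its other probes gave -0.69 and -0.52. The call was lost when ozone replicate 1 (adjusted p = 0.0755) or 3 (0.0738), or air replicate 1 (0.0690) or 4 (0.106), was left out, with the normexp background correction in place of that of the scanner files (0.155) and with times fitted apart (0.137).

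Sc5d, which sets the ring double bond before the last reduction, was at 1.23, 0.90, 1.16 and 1.17 in air and 0.78, 0.60, 0.06 and 0.78 in ozone (probe at chr9:42062857-42062916, minus strand, mm9). All ozone values lay below all air values, and ozone replicate 3 was far below the other ozone lungs. The difference was -0.56 ± 0.14 (SE; limma adjusted p = 0.0292), and the second probe gave -0.24. The difference without ozone replicate 3 was -0.39 (adjusted p = 0.0651). The call was also lost without ozone replicate 2 (0.0546), without air replicate 1 (0.0695), 3 (0.0587) or 4 (0.106), and with times fitted apart (0.124).

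**Figure D1:**
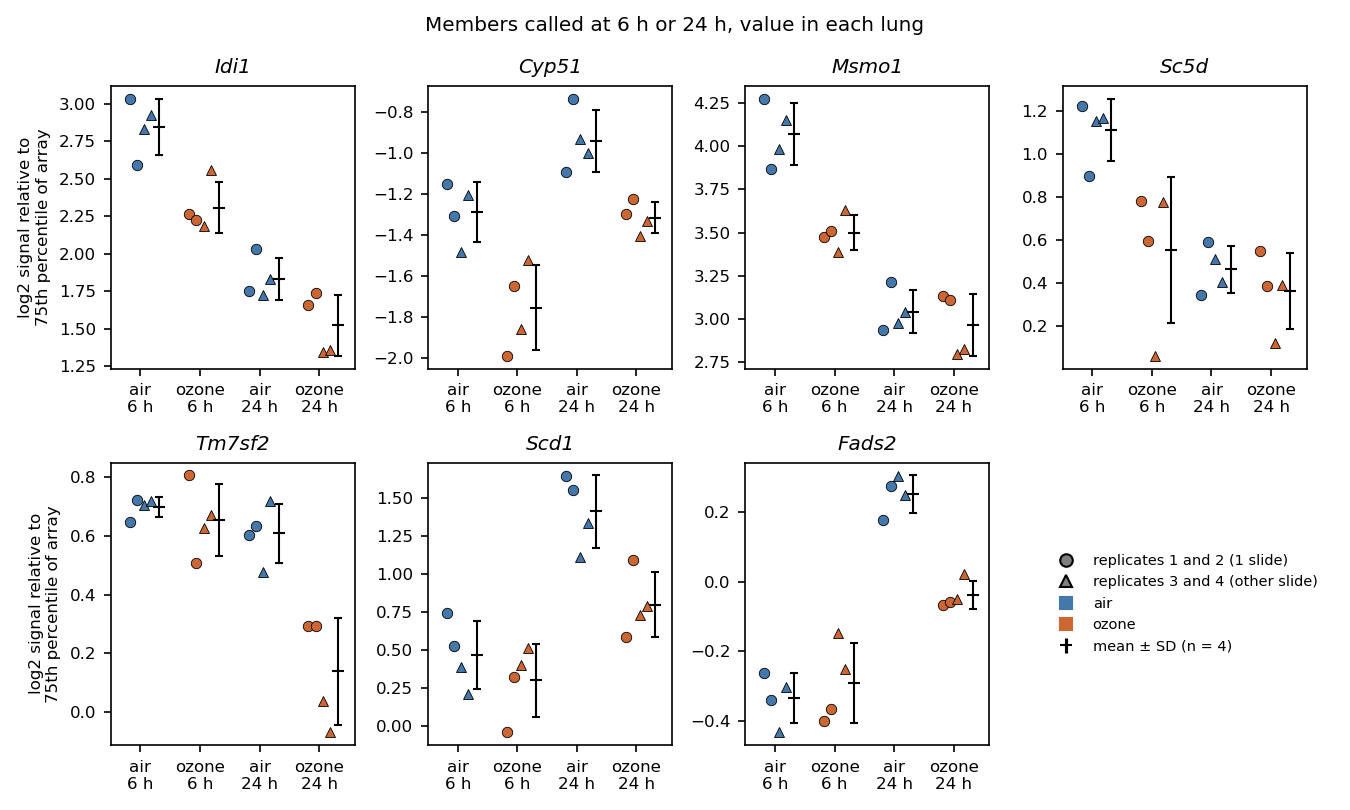
Levels of the 7 members called at 6 h or 24 h, as log2 signal relative to the 75th percentile of the array, with 1 point per lung and the mean ± SD of each group of 4 beside it (circles: replicates 1 and 2, triangles: replicates 3 and 4). Idi1, Cyp51, Msmo1 and Sc5d separate ozone from air at 6 h, and Cyp51, Tm7sf2, Scd1 and Fads2 do so at 24 h.

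Hsd17b7, the ketosteroid reductase that works with Msmo1 and Nsdhl in removing methyl groups, was the fifth cholesterol gene whose ozone values all lay below its air values at 6 h. It stood at 0.60, 0.52, 0.02 and 0.27 in air and -0.41, -0.09, -0.15 and -0.08 in ozone, a difference of -0.54 ± 0.17 (SE; limma adjusted p = 0.0830) that missed the threshold. Air replicate 3 was the lowest air lung and ozone replicate 1 the lowest of all. Ozone lay wholly below air in 5 of 21 cholesterol genes and 0 of 9 fatty acid genes, against 4.87% of all genes, and wholly above air in none of them, against 4.61%.

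Other enzymes of the cholesterol arm gave smaller or less certain differences at 6 h, none of them called. Fdft1 (squalene synthase) was at -0.44 ± 0.13 (SE; limma adjusted p = 0.0579), Fdps (farnesyl diphosphate synthase) at -0.38 ± 0.15, Sqle (squalene epoxidase) at -0.36 ± 0.11 and Hmgcs1 (HMG-CoA synthase) at -0.35 ± 0.14. The mevalonate enzymes Mvk, Pmvk and Mvd lay between -0.09 and -0.02, close to 0. Acat2, at the entry to the pathway, was the only cholesterol gene above 0, at 0.28 ± 0.14 (limma adjusted p = 0.284). Lss (lanosterol synthase), Tm7sf2, Nsdhl, Ebp and Dhcr7 ranged from -0.24 to -0.05. Among the regulators, Insig1 was at -0.19, the sterol carrier gene Stard4 at -0.16 and Srebf2 at -0.000683.

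In all, 20 of 21 cholesterol genes were below 0 at 6 h, with a median difference of -0.24, while the median over all genes tested was 0.07. In the fatty acid arm 5 of 9 genes were below 0 and the median was -0.04. Elovl6, which lengthens palmitate, had the largest difference there, -0.49 ± 0.14 (SE; limma adjusted p = 0.0614). The remaining fatty acid genes lay between -0.17 (Scd1) and 0.12 (Acly), with Fasn, the fatty acid synthase, at 0.05 ± 0.11.

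**Figure D2:**
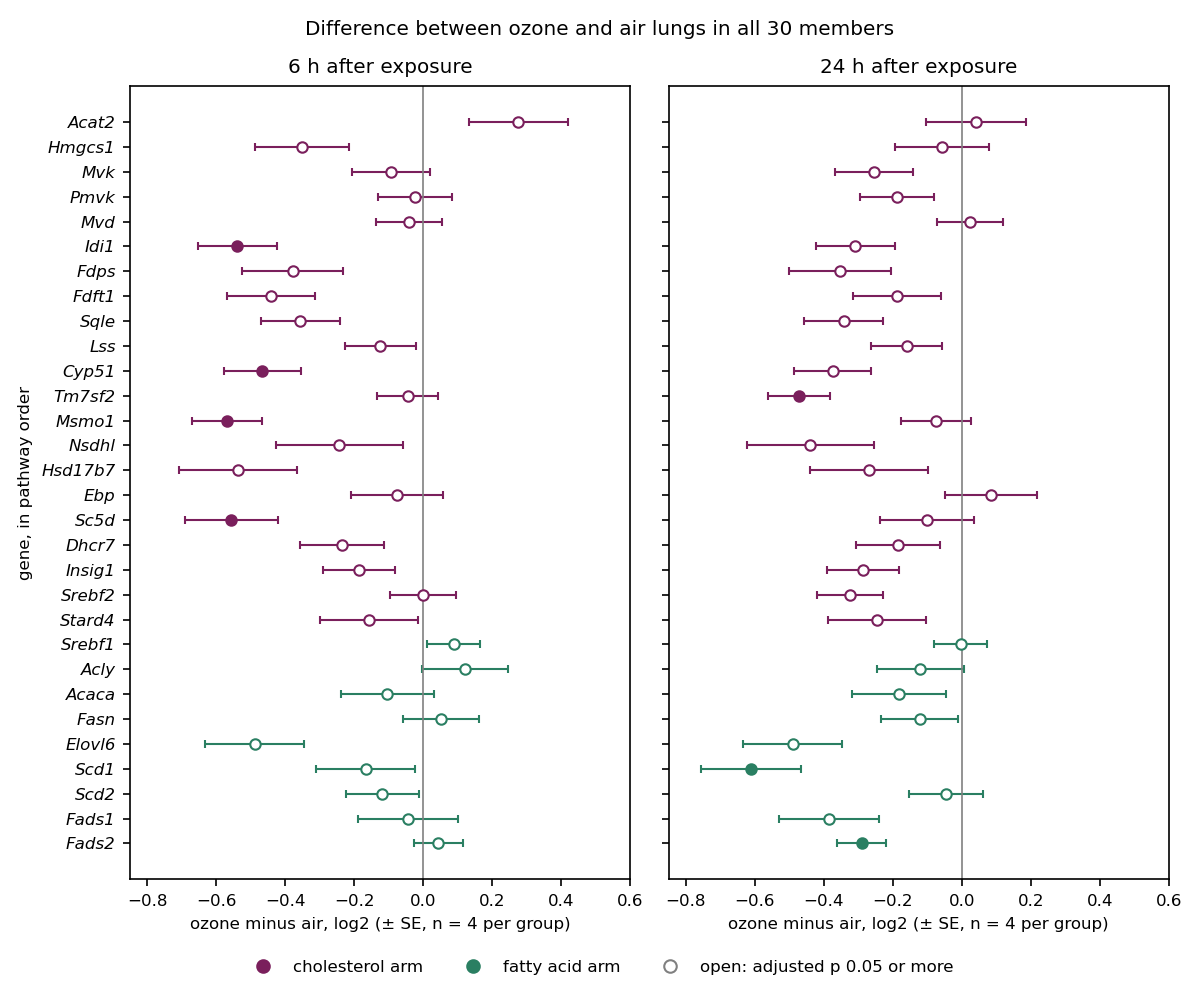
Difference between ozone and air lungs (log2, ± SE, n = 4 per group) of all 30 members in pathway order at 6 h and 24 h, with filled points for an adjusted p under 0.05. At 6 h, 20 of 21 cholesterol genes lie below 0, and at 24 h all 9 fatty acid genes and 18 of 21 cholesterol genes do.

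The count at 6 h rested on single lungs. It was 8 members without air replicate 3, when Hmgcs1, Fdps, Fdft1, Sqle and Elovl6 were also called and Sc5d was not, 2 without air replicate 1, and 1, Msmo1, without ozone replicate 3 or air replicate 4. Over the 21 cholesterol genes, air replicate 3 was on average -0.25 from the air mean, as low as the ozone lungs, which lay between -0.33 and -0.18. Air replicate 1 was at 0.21. The cholesterol median was -0.13 without air replicate 1, -0.14 without ozone replicate 1 and -0.36 without air replicate 3. The fatty acid median turned above 0 without ozone replicate 1 (0.08) and without air replicate 2 (0.04).

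**Figure D3:**
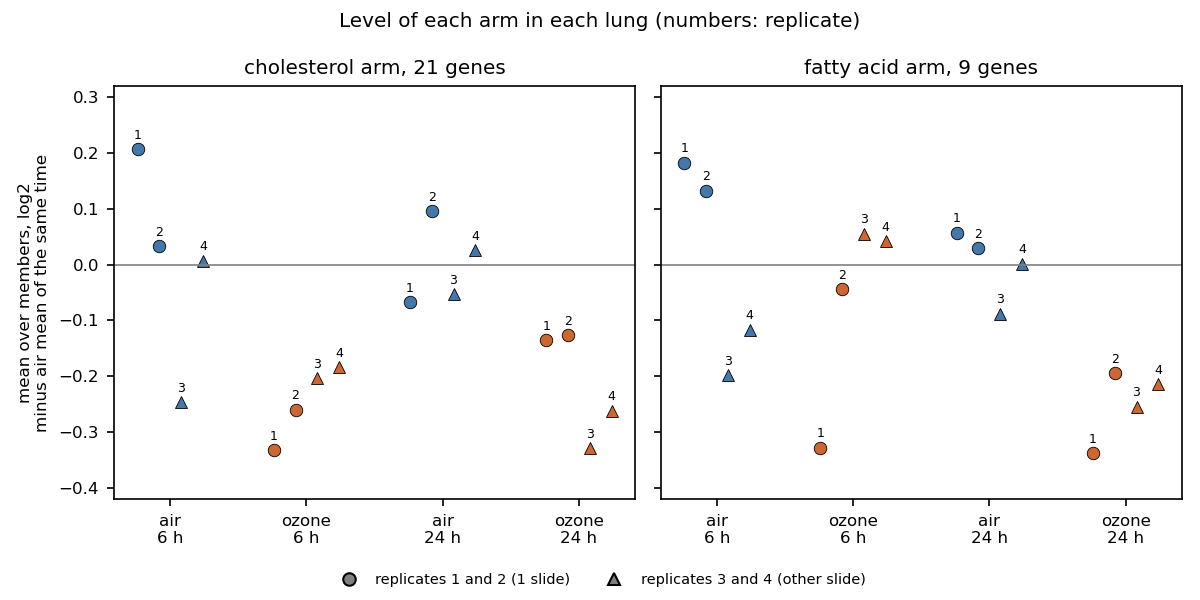
Mean over the members of each arm in each lung, as log2 level minus the mean of the 4 air lungs of the same time (numbers give the replicate, symbols the slide). At 6 h air replicate 3 lies at -0.25 in the cholesterol arm, within the range of the ozone lungs, and at 24 h the ozone lungs lie below the air lungs in both arms.

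The medians of both arms lay further apart on the 2 slides of 6 h than on those of 24 h. On the slide of replicates 1 and 2 the cholesterol median was -0.39, with 20 of 21 genes below 0, and on the slide of replicates 3 and 4 it was -0.00902, with 11 below 0. The fatty acid median was -0.37 on the first, with 9 of 9 genes below 0, and 0.20 on the other, with 1 of 9 below 0, Elovl6. The median over all genes was -0.00371 on the first slide and 0.11 on the other.

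Fasn shows this split. It was at 5.14, 4.81, 4.48 and 4.67 in air and 4.73, 4.74, 4.87 and 4.96 in ozone, so the difference was -0.24 on the first slide and 0.34 on the second. Scd2, a stearoyl-CoA desaturase, went from -0.44 to 0.20 in the same way. Tested gene by gene in limma, the slide difference was called in 0 of 30 members and 0% of all genes at 6 h (lowest adjusted p among members 0.506). At an unadjusted p under 0.05 it counted 8 of 9 fatty acid genes and 7 of 21 cholesterol genes, against 9.66% of all genes. The 4 called genes were below 0 on both slides, Idi1 at -0.57 and -0.51, Cyp51 at -0.59 and -0.35, and Sc5d at -0.37 and -0.74.

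**Figure D4:**
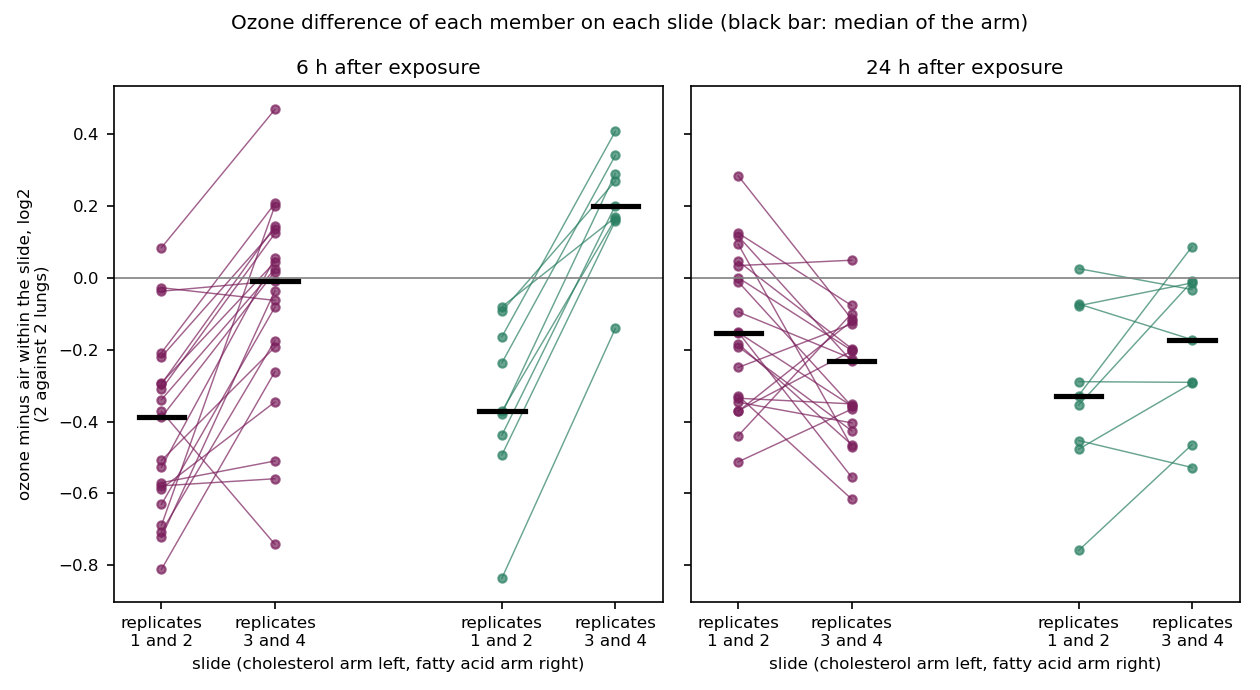
Ozone minus air difference (log2) of each member on each slide, 2 lungs against 2, with lines joining a gene and black bars for the median of the arm. At 6 h the fatty acid median moves from -0.37 to 0.20 between slides and the cholesterol median from -0.39 to -0.00902, while at 24 h all 4 medians lie below 0.

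At 24 h, other members were called: Tm7sf2 in the cholesterol arm and the desaturases Scd1 and Fads2 in the fatty acid arm, all lower after ozone, with 0.655 to 0.818 of the air level. No member was called higher. With limma, 3 of 30 members were called, against 2.01% of all genes (1.32% called lower and 0.689% higher). At an unadjusted p under 0.05 the counts were 9 of 21 cholesterol genes and 4 of 9 fatty acid genes, all lower, against 5.06% of all genes lower and 13.3% in either direction.

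Tm7sf2 makes the C14 sterol reductase, the step after Cyp51 (probe at chr19:6062882-6062941, minus strand, mm9). It was at 0.61, 0.64, 0.48 and 0.72 in air and 0.29, 0.29, 0.04 and -0.07 in ozone. All ozone lungs lay below all air lungs, with replicates 3 and 4 lower than replicates 1 and 2. The difference was -0.47 ± 0.09 (SE; limma adjusted p = 0.00711), called in 16 of 16 fits that left out 1 array, and the slides gave -0.33 and -0.62. The same gene was at 0.65, 0.72, 0.71 and 0.72 in air and 0.81, 0.51, 0.63 and 0.67 in ozone at 6 h, where the groups overlapped.

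Scd1, the stearoyl-CoA desaturase that puts the double bond into oleate, was at 1.64, 1.55, 1.11 and 1.34 in air and 0.58, 1.09, 0.73 and 0.79 in ozone (probe at chr19:44469387-44469446, minus strand, mm9). Ozone replicate 2 came close to air replicate 3, the lowest air lung, and the groups did not overlap. The difference was -0.61 ± 0.14 (SE; limma adjusted p = 0.0348). It lost the call without ozone replicate 1 (adjusted p = 0.117), 3 (0.0970) or 4 (0.0831) and without air replicate 1 (0.124), 2 (0.115) or 4 (0.0692), and with sex as a covariate (0.0978). Scd2, a near copy of Scd1 with a probe of its own, was at -0.05 ± 0.11. Whether either probe also picks up RNA of the other gene was not tested.

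Fads2, the delta-6 desaturase of polyunsaturated fatty acids, was at 0.18, 0.28, 0.31 and 0.25 in air and -0.07, -0.06, -0.05 and 0.02 in ozone (probe at chr19:10138750-10139180, minus strand, mm9). The spread within each group was small, and each ozone lung was below each air lung. The difference was -0.29 ± 0.07 (SE; limma adjusted p = 0.0420), the same on both slides. It stayed called in 4 of 16 fits that left out 1 array, those without air replicate 1, air replicate 3, ozone replicate 1 or ozone replicate 3 of 6 h, and had an adjusted p between 0.0508 and 0.120 in the others, among them each fit without a lung of 24 h. The call was also lost with slide as a block (0.0528), with normexp background (0.117) and with sex as a covariate (0.0656).

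Fads1, the delta-5 desaturase next to Fads2 on chromosome 19, was at 1.40, 1.48, 1.41 and 1.44 in air and 0.87, 1.06, 1.09 and 1.18 in ozone at 24 h. Its air lungs were almost alike and all above its ozone lungs, and the difference was -0.39 ± 0.15 (SE; limma adjusted p = 0.224). Elovl6 was at 0.03, 0.14, 0.20 and 0.26 in air and -0.37, -0.37, -0.42 and -0.19 in ozone, again with no overlap, at -0.49 ± 0.14 (limma adjusted p = 0.0987). Neither passed the threshold, and both passed it without ozone replicate 1 of 6 h, which enters the shared estimate of spread (adjusted p = 0.0435 and 0.0457). The count was then 5 members, and it was 1, Tm7sf2, without ozone replicate 1, 3 or 4 or air replicate 1, 2 or 4 of 24 h.

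Acly, Acaca and Fasn, which make the acetyl-CoA, the malonyl-CoA and the chain itself, lay between -0.18 and -0.12 at 24 h, none called. Srebf1 was at 3.76, 3.69, 3.66 and 3.83 in air and 3.76, 3.74, 3.77 and 3.65 in ozone, groups that overlapped throughout, with a difference of -0.00369 ± 0.08 (SE). All 9 fatty acid genes were below 0, with a median of -0.18, against 0.02 over all genes.

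In the cholesterol arm, 6 further genes had all ozone values below all air values at 24 h without passing the test. Srebf2, the regulator of the arm, was at 3.67, 3.63, 3.80 and 3.79 in air and 3.58, 3.35, 3.33 and 3.32 in ozone. Ozone replicate 1 was nearest to the air lungs, and the difference was -0.32 ± 0.10 (SE; limma adjusted p = 0.100), with its 3 other probes between -0.56 and -0.31. Insig1, which holds SREBP back, was at -1.46, -1.23, -1.36 and -1.52 in air and -1.73, -1.71, -1.75 and -1.55 in ozone. That difference was -0.29 ± 0.10 (SE; limma adjusted p = 0.204), and ozone replicate 4 lay just below air replicate 4.

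Cyp51 kept separate groups at 24 h, at -1.09, -0.74, -0.93 and -1.0 in air and -1.29, -1.22, -1.40 and -1.33 in ozone, a difference of -0.38 ± 0.11 (SE; limma adjusted p = 0.107). It was the only member whose ozone lungs lay wholly below its air lungs at both times. Sqle, often named a rate-limiting enzyme of the late pathway, was at 1.53, 1.80, 1.50 and 1.54 in air and 1.25, 1.40, 1.15 and 1.19 in ozone. Air replicate 2 was the highest, and the difference was -0.34 ± 0.11 (SE; limma adjusted p = 0.153), alike on both slides at -0.34 and -0.35.

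Nsdhl, the sterol dehydrogenase that follows Msmo1, was at -0.54, -0.35, -0.64 and -0.51 in air and -1.12, -0.80, -0.92 and -0.96 in ozone. The groups were well apart at 24 h, but the lungs of 6 h spread widely (SD 0.46 in air), and the difference of -0.44 ± 0.18 (SE) had an adjusted p of 0.290 in limma. Mvk, the mevalonate kinase, was at -0.13, -0.06, 0.04 and 0.06 in air and -0.31, -0.19, -0.44 and -0.17 in ozone. Its difference was -0.25 ± 0.11 (SE; limma adjusted p = 0.327), with only a narrow gap between the groups. Counting Tm7sf2, ozone lay wholly below air in 7 of 21 cholesterol genes and 4 of 9 fatty acid genes, against 4.96% of all genes, and wholly above air in none, against 6.8%.

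Of the 4 genes called at 6 h, none was called at 24 h, and the groups of Msmo1, Sc5d and Idi1 overlapped there. Msmo1 was at 2.93, 3.22, 2.98 and 3.04 in air and 3.13, 3.11, 2.80 and 2.83 in ozone (-0.08 ± 0.10, SE), Sc5d at -0.10 ± 0.14 and Idi1 at -0.31 ± 0.11. The rest of the cholesterol arm lay between -0.35 (Fdps) and 0.08 (Ebp, the sterol isomerase). In all, 18 of 21 cholesterol genes were below 0 at 24 h, and the median was -0.25. On the slides, the cholesterol medians were -0.15 (14 of 21 below 0) and -0.23 (20 of 21), and the fatty acid medians -0.33 and -0.17 (8 of 9 below 0 on each). The slide difference at 24 h was called in 0 of 30 members and 0% of all genes in limma, with 1 member, Pmvk, at an unadjusted p under 0.05 against 6.21% of all genes.

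The difference between times was tested itself, as the ozone effect at 24 h minus that at 6 h. In limma, 0 of 30 members passed, against 0.0647% of all genes, and 6 members had an unadjusted p under 0.05, against 12.5% of all genes. Msmo1 (0.49 ± 0.14, SE; adjusted p = 0.165) and Sc5d (0.46) had values further below 0 at 6 h. Tm7sf2 (-0.43 ± 0.13; 0.169), Fads2 (-0.33 ± 0.10; 0.181), Scd1 (-0.44) and Srebf2 (-0.32) had values further below 0 at 24 h. So genes called at 1 time and not at the other are not shown to differ between times. The time points were run separately, with slides of their own, so time and run cannot be told apart.

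Several members had more than 1 probe, 18 of 30, and the text uses the brightest. At 6 h, 6 of 24 other probes that were above background on all arrays had the opposite sign, in Acaca, Lss, Nsdhl and Srebf2, and at 24 h 4 of 24 did, in Acaca, Fdps, Hmgcs1 and Nsdhl. None of these belongs to a gene called at that time. Msmo1, called at 6 h, and all genes called at 24 h (Tm7sf2, Scd1 and Fads2) have only 1 probe each, so no other probe could differ. A dimmer probe of Fdft1, above background on 6 arrays, gave 1.93 at 6 h, against -0.44 for the brighter.

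Other genes of sterol and fatty acid metabolism came from lists of the pathway. Of 12 remaining genes of sterol synthesis and sensing, 0 were called at 6 h in limma (4 at an unadjusted p under 0.05, against 21% of all genes), with Ggps1, which makes geranylgeranyl diphosphate, at -0.26 ± 0.09 (SE; limma adjusted p = 0.119). At 24 h 1 was lower, against 1.32% of all genes: Aacs, which activates acetoacetate for lipid synthesis (-0.63 ± 0.15, SE; limma adjusted p = 0.0338). Their medians were -0.09 and -0.01.

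Of 19 genes of sterol uptake, storage and efflux, 0 were called at 6 h in limma (8 at an unadjusted p under 0.05, against the same 21%), with Tmem97 at -0.37 ± 0.11 (adjusted p = 0.0757) and Npc1, which moves cholesterol out of lysosomes, at 0.26 ± 0.09 (0.0916). At 24 h 2 were higher, against 0.689% of all genes, and none lower, against 1.32%. The higher genes were Apoe, the lipoprotein that carries cholesterol between cells (0.61 ± 0.10, SE; limma adjusted p = 0.00196), and Mylip, which marks the LDL receptor for breakdown (0.62 ± 0.14; 0.0308). The Apoe call was kept in 16 of 16 fits without 1 array and the Mylip call in 11. Of 20 measured genes among 21 of fatty acid elongation, lipogenic control and glycerolipid synthesis, 1 was lower at each time. Over all genes, 3.11% were called lower at 6 h and 1.32% at 24 h. The gene was Hsd17b12, a reductase of the elongation cycle, at -0.34 ± 0.09 (SE; limma adjusted p = 0.0341) and -0.37 ± 0.09 (0.0295). The call was kept in 11 of 16 such fits at 6 h and 9 of 16 at 24 h. Its other probe gave -0.21 at 6 h and 0.06, the opposite sign, at 24 h.

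Markers of cell types moved beside these genes to different degrees. All 10 type II cell markers and all 6 lipofibroblast markers were measured and none was called at either time in limma. At an unadjusted p under 0.05 there were 5 type II markers at 6 h and 1 at 24 h, against 21% and 13.3% of all genes. For lipofibroblast markers these counts were 0 and 1. The type II medians were 0.17 and 0.08, with 8 of 10 markers above 0 at 6 h and 7 at 24 h. Of 8 genes of dividing cells, 5 were lower at 6 h and 8 at 24 h, against 3.11% and 1.32% of all genes. Their medians were -0.57 and -0.85. Their summed level (array 75th percentile = 1) was 41.9 to 51.2 in ozone against 59.7 to 74.2 in air at 6 h, and 36.6 to 50.3 against 65.0 to 72.0 at 24 h. Their part in the members' differences was not tested.

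Adipocyte markers, which belong to cells that also make fatty acids, stood high in single lungs. Of 9, 8 were measured (Lep was not), and their summed level was 63.7 in air replicate 1 of 6 h and 10.0 to 16.6 in the other 7 lungs of that time. At 24 h it was 57.6 in ozone replicate 4, 13.5 in ozone replicate 3 and 5.30 to 7.78 in the other 6 lungs. None was called at either time in limma. At an unadjusted p under 0.05 there were 0 at 6 h and 4 at 24 h, against 21% and 13.3% of all genes. At 6 h 6 of the 8 were below 0 (median -0.44), and at 24 h all 8 were above 0 (median 1.26). Air replicate 1 of 6 h was also the highest lung of that time in the cholesterol (0.21) and fatty acid (0.18) arms. Ozone replicate 4 of 24 h lay below the air mean of its time in both (-0.26 and -0.21). Of the 5 macrophage markers measured of 6, 1 was lower at 6 h, against 3.11% of all genes: Mrc1 (-0.39 ± 0.11; limma adjusted p = 0.0417). At 24 h none of the 5 was called in limma (3 at an unadjusted p under 0.05, against 13.3% of all genes). All 5 were above 0 with a median of 0.39, and their summed level was 2.28 to 2.89 in ozone against 1.97 to 2.20 in air. Of 4 measured liver markers of 6, 0 were called at either time, but their level differed widely between lungs of a group at 6 h. Their summed level was 0.26 to 2.08 in ozone against 0.19 to 4.15 in air at 6 h. At 24 h it was 0.15 to 0.44 against 0.24 to 0.92. The part of these cells in the members' levels was not tested.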

How the data were processed

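Total RNA of 16 whole lungs was primed with oligo(dT) and marked with Cy3, per the labels' protocols, and read on 1-colour Agilent arrays. The deposited scanner files hold spot intensity on a linear scale, which Agilent Feature Extraction 10.7.1.1 had corrected for background and spatial trend, per the file headers, without scaling between arrays. Flags for spots above background, uneven or saturated are other values in those deposited files (0 spots were saturated). A table of log2 values deposited by the authors served as an alternative. Its column medians were 6.41 at 6 h and 6.73 at 24 h, its values correlated with the scanner signal of their arrays at 0.990 or more, and how its background was treated is not stated in the sources. Probe positions are the array design's, on build mm9; no annotation of that build was used, so exons and UTRs are not given.

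Spots of a probe were averaged on the log2 scale after uneven spots were left out (157 of 41174 probes were dropped), and each array's 75th percentile was subtracted. A probe was kept where at least 4 of 16 arrays had it well above background, and the brightest stood for its gene (7341 of 21640 genes had several). Names came from RefSeq's table by accession (25089 probes), symbol (6339) or synonym (1639), and otherwise from the files (8107). Contrasts were fitted by limma 3.58.1 (R 4.3.3; trended eBayes) on group means, with two-sided Benjamini-Hochberg adjusted p-values over all 21640 genes. The number of arrays limits the precision (median SE 0.13). On simulated data with these spreads the fit recovered 49% of 1.5-fold and 76% of 2-fold changes at 6 h, and 52% and 72% at 24 h.

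The members, the pathway and marker lists and the rule for naming genes (values in every lung for members called or with groups that do not overlap; from other lists the called genes, or otherwise the 2 with the smallest p) were chosen with earlier results of these data known. A gene that this rule would name is not reported here. Alternatives were quantile normalization, normexp background, the authors' table, the mean of probes, no filter, a filter on all arrays, slide, replicate or sex as a term, times fitted apart, array weights, each slide alone and each array left out.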

Additional observations from a re-analysis of the deposited data

Results flagged for a closer look

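Each member's 4 values in each group were screened for a lung far from the other 3, and 3 of 120 sets were picked out, where chance would pick about 1 in 20. At 24 h, Sqle in air replicate 2 was 1.80, with the next air lung at 1.54. Srebf2 in ozone replicate 1 of 24 h was 3.58, with the next ozone lung at 3.35, and it lay nearer to the air lungs than the other ozone lungs did. At 6 h, Fads1 in ozone replicate 1 was -0.32, with the next ozone lung at 0.38. That lung also had the lowest level of the fatty acid arm at 6 h, on average -0.33 from the air mean.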

How the results depend on the processing

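No member's difference was reversed while called in any alternative or fit without 1 array: of the members' values, 2371 kept direction and side of the threshold, 127 changed sign while uncalled in both fits, 53 lost a call and 29 gained one. The genes called at 6 h (969) became 247 with a replicate block, 100 with times fitted apart, 1815 with array weights, 591 with sex as a covariate, 53 within the slide of replicates 1 and 2, and 196 to 1689 without 1 array. The members called at 6 h (4) became 2 with a replicate block (Msmo1 and Idi1), 1 with times fitted apart, 0 and 1 within the slides, and 1 to 8 without 1 array. The genes called at 24 h (435) became 261 with a replicate block, 1739 with array weights, 255 with sex as a covariate, 47 and 255 within the slides, and 263 to 530 without 1 array. The members called at 24 h (3) became 1 with a replicate block, 6 with times fitted apart and 12 with array weights. With inferred sex as a covariate the count was 1, Tm7sf2. By that inference 3 of 4 ozone lungs and 1 of 4 air lungs of 24 h were male. The members called at 24 h were 0 and 1 within the slides, and 1 to 5 without 1 array. For the difference between times, 14 genes became 37 with quantile normalization, 536 with normexp background, 6 with slide as a block, 1 with a replicate block, 441 with array weights, 0 and 0 within the slides, and 0 to 264 without 1 array. With normexp background 1 member passed there, Msmo1 (0.65, adjusted p = 0.0315). The slide difference at 24 h counted 9556 genes with normexp background. That background moved the median of all genes to 0.14 at 6 h and -0.13 at 24 h, from 0.07 and 0.02. The cholesterol median was -0.39 and -0.00902 within the slides at 6 h, and -0.15 within the first slide at 24 h. The fatty acid median was -0.37 and 0.20 within the slides at 6 h, and at 24 h -0.33 within the first slide and -0.29 with the mean of probes. The cause of these shifts was not tested, and a difference within a slide rests on fewer arrays. Same-numbered ozone and air lungs deviated together only weakly (r from -0.00743 to 0.195). Among 4 candidates each, 7 of 16 lungs correlated best with their own number. These values do not decide whether the numbers are pairs. They were not taken as pairs in the fit used, and the counts with a replicate block are given above. All members were above background, but the calls of Cyp51 at 6 h and Fads2 at 24 h were lost with normexp background. With 4 lungs a group, differences under about 1.5-fold are often left uncalled.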
